A study of Mus musculus with 6 samples.

Results

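The regions described here are 3784 peaks of BMAL1 chromatin immunoprecipitation sequencing (ChIP-seq) that lay at gene ends and were listed in 1 wild-type mouse retina library, Control 1, alone. They were selected on the peak calls themselves. A Control 1 peak was a member when it overlapped no peak of the other 5 libraries and its summit, the base of highest signal, lay within 1 kb of an annotated end of a protein-coding gene. The gene in question also had to have no Bmal1 CKO 2 summit within 1 kb of either end. The member peaks were 2.11% of the 179475 Control 1 peaks and 20.1% of the 18801 Control 1 peaks at a gene end. They lay at 3173 of the 21900 protein-coding genes tested (14.5%). Because the calls chose the members, all counts below are descriptions with no test, and 1 library per side allows no statement on genotype.

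The series holds 6 retinal ChIP-seq libraries made with a rabbit antibody against BMAL1 from untreated C57BL/6 mice. Of these, Control 1 to 3 were wild type, and Bmal1 CKO 1 to 3 came from a conditional knockout of that gene. The labels give neither the cells in which Bmal1 was deleted nor the age or the time of day at collection, beyond weaning at P20. Only the lists of Control 1 and Bmal1 CKO 2 were long, with 179475 and 138254 peaks, and the other 4 held 372 to 1444. The 2 long lists thus came from different genotypes, if the series record links lists and samples rightly (the names of the lists carry other numbers), and library and genotype cannot be told apart between them.

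BMAL1 is a transcription factor of the circadian clock. It pairs with CLOCK and binds the E-box CACGTG in the promoters of clock genes and of many genes with daily rhythms. Promoters differ in base composition: genes used in most cells and regulators of development tend to have promoters rich in CG dinucleotides, whereas genes of late-differentiated tissues and of smell often lack them.

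Promoters of members are shown first, because the E-box is the motif that BMAL1 is known to bind and because base composition differed between the gene groups described below. RefSeq promoter windows of assembly GRCm38.p6, whose coordinates are those of mm10, run from 250 bases before to 50 bases after a start and were found for 2449 of the 3173 member genes. The motif CACGTG, which reads the same on both strands, occurred in 188 of these windows (7.68%), against 1384 of the 17492 windows of all protein-coding genes (7.91%). Among the 544 members whose summit lay inside the window, 44 windows held it (8.09%). In genes with an end peak in both long lists the share was 10.1%, and in genes with none in either it was 3.78%. In genes with an end peak in Bmal1 CKO 2 alone it was 5.61%. The E-box CAGCTG, also the same on both strands and with no overlap with CACGTG, occurred in 18.3% of member windows and in 15.1% of all windows. Its share was 18.2% for Bmal1 CKO 2 alone, 14.5% for both long lists and 14.0% for neither, so it was not particular to the members. The share of member promoters with CACGTG was thus close to that of promoters in general.

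The first 4 members by fold whose summit lay in a window with CACGTG, and the first with 2 copies of it, are printed 5′ to 3′ with the motif in capitals.
Mov10l1, chr15:88982744-88983043, plus strand: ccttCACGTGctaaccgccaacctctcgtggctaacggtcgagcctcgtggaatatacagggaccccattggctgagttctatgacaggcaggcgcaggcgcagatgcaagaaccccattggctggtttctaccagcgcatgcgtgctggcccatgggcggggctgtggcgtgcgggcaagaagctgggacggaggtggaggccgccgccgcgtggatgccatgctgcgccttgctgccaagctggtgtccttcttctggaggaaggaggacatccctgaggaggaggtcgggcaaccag
Robo2, chr16:75447244-75447543, minus strand: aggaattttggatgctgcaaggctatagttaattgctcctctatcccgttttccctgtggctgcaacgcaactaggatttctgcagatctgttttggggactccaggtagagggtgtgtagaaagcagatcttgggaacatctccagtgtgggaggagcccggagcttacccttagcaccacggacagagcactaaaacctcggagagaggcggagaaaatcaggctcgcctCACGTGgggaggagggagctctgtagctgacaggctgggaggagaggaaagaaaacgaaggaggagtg
Ninj2, chr6:120093130-120093429, plus strand: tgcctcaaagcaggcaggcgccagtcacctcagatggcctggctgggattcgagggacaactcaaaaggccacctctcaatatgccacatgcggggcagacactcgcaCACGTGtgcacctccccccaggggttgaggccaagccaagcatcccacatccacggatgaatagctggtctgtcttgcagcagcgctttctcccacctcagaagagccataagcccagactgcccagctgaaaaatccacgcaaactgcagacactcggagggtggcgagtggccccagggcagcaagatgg
Vwa2, chr19:56874166-56874465, plus strand: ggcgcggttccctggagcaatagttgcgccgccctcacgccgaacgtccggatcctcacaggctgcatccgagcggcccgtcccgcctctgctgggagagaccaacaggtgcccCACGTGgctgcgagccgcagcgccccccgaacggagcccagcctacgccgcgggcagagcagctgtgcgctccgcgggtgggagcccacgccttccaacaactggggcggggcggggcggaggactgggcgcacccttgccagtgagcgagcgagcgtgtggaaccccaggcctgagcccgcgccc
Piwil1, chr5:128735996-128736295, plus strand: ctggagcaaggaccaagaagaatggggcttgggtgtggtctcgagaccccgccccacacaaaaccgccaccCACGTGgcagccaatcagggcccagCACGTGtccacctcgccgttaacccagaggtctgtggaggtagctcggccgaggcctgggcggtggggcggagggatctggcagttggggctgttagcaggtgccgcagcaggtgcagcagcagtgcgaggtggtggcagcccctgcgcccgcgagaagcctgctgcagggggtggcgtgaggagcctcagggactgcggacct

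At Mov10l1, which encodes an RNA helicase of the piRNA pathway in male germ cells, the fold was 3.89 from 25 stacked fragments, and the motif lay 129 bp from the summit at 88982877. At Robo2, an axon guidance receptor, 16 fragments gave a fold of 3.81, and the motif lay 74 bp from the summit. The nearest Bmal1 CKO 2 peaks were 24808 bp away at Mov10l1 and 7178 bp away at Robo2. At Ninj2, which encodes the adhesion protein ninjurin 2, the motif lay 4 bp from the summit of a peak with a fold of 3.80 from 20 fragments. At Vwa2, a gene of a matrix protein with von Willebrand factor domains, it lay 12 bp from a summit with a fold of 3.69 from 32 fragments. At Piwil1, which encodes a piRNA-binding protein of the germ line, the closer of the 2 copies lay 4 bp from the summit, with a fold of 3.27 from 27 fragments. A match is a description of the letters and not a bound site.

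The contrast in base composition among members is shown by a developmental signal and an olfactory receptor, with every CG dinucleotide in capitals. These 2 windows were picked after their values were seen.
Wnt5b, chr6:119544298-119544597, minus strand: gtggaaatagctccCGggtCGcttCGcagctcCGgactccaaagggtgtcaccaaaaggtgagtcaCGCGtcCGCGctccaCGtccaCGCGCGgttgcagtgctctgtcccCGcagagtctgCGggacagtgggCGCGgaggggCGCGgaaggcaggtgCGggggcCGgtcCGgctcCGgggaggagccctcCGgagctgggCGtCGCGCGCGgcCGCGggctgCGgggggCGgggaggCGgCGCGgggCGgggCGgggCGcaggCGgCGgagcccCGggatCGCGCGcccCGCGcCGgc
Olfr1360, chr13:21674931-21675230, minus strand: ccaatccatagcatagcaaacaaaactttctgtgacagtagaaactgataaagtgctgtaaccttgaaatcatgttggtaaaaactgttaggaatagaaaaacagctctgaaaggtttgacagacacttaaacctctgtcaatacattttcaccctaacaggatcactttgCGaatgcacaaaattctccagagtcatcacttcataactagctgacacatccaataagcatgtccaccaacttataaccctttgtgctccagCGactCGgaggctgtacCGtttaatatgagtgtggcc

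The Wnt5b window held 47 CG dinucleotides and 78.0% G+C, and the Olfr1360 window held 4 and 40.3%. Wnt5b encodes a secreted Wnt ligand. Its summit at 119544544 lay inside the printed window, and 280 bp inside the gene from the annotated start at 119544824. The printed window belongs to a start farther inside the gene. The peak had 29 stacked fragments over a background of 8.76 and a fold of 3.07. Olfr1360 encodes an odorant receptor, and its summit lay 415 bp inside the gene, with 23 fragments over 3.46 and a fold of 5.38. The receptor thus had the higher fold from fewer fragments.

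The fold used throughout is the authors' own value for the summit of each peak, relative to the background that the peak caller estimated there. The deposited fold and p-value together gave back how many fragments were stacked there and over which background. Member peaks were weaker and narrower than the Control 1 peaks at gene ends that overlapped another list. Of the 6692 Control 1 end peaks in no other list, those that were not members were not compared. Their median fold was 2.92 (1.90 to 7.47), from a median of 25 fragments (11 to 50) over a background of 8.04, and their median width was 287 bp. The 12109 Control 1 end peaks that overlapped another list had a median fold of 4.09, 31 fragments over 6.38 and a width of 599 bp. A fold of at least 4 was reached by 9.22% of member peaks and by 53.2% of those shared end peaks. The 99621 Control 1 peaks that overlapped no other list and lay at no gene end had a median fold of 3.36 and a width of 244 bp, and 19.3% of them reached 4. The median −log10 q-value was 4.12 in members and 8.21 in shared end peaks. Fold and the calls that chose the members come from the same list, so nothing is read from this difference.

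**Figure D1:**
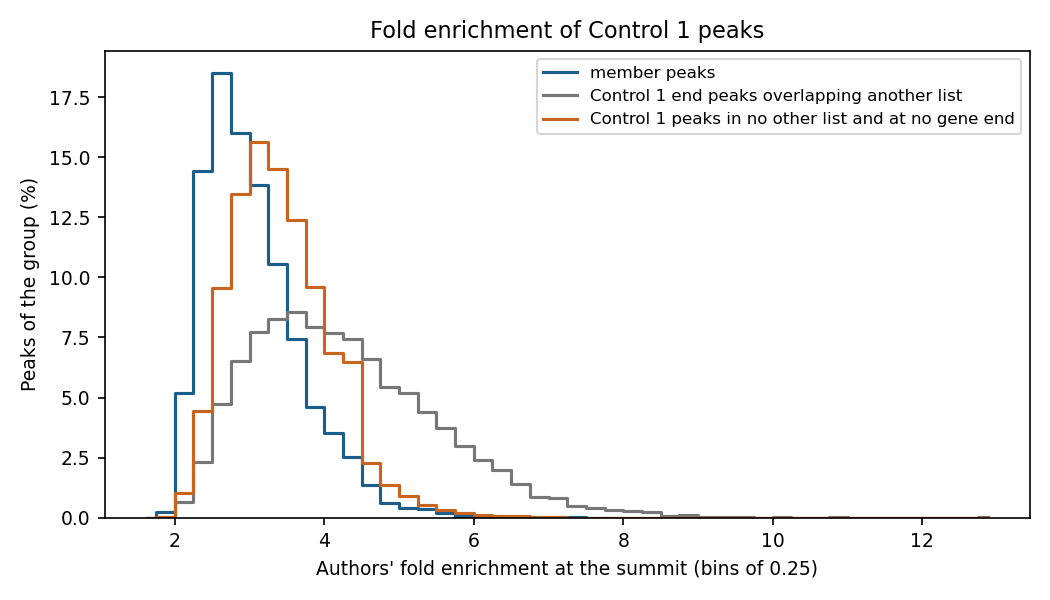
Authors' fold enrichment at the summit (x axis, bins of 0.25) against the percentage of peaks in each group (y axis) for 3 groups of Control 1 peaks. The members (blue, median 2.92) sit left of both the end peaks shared with another list (grey, median 4.09) and the lone peaks away from gene ends (orange, median 3.36).

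At the limit of 1 kb, the members Cln8, which encodes a protein of the endoplasmic reticulum, and Oosp1, an oocyte-secreted protein gene, had summits at 1000 bp from a gene end, with folds of 2.81 and 3.32. Just outside lay the summits at Krt80 (1002 bp, fold 2.38) and Fli1 (1004 bp, fold 2.49), a keratin gene and the gene of an ETS transcription factor. Of the member genes, 2469 had 1 member peak, 617 had 2, 80 had 3 and 7 had 4. Of the member peaks, 3607 lay at 1 gene, 174 at 2 and 3 at more, with at most 10 genes at 1 peak in the gamma protocadherin cluster.

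An end peak was the usual state of a gene in both long lists. Summits lay within that distance of 69.5% of genes in Control 1 and of 58.9% in Bmal1 CKO 2, with 11974 genes shared. The members were 20.8% of the 15226 Control 1 end genes. A further 79 genes with an end summit in Control 1 and none in Bmal1 CKO 2 were not members, since all their end peaks overlapped a peak of another list. The same rule with Control 1 and Bmal1 CKO 2 exchanged gave a mirror set of 832 peaks at 796 genes, 3.63% of all genes and 3.99 times fewer than the members. Mirror peaks had a median fold of 2.83 from 23.5 fragments. The lowest recovered background was 3.46 fragments per base in Control 1 and 5.83 in Bmal1 CKO 2. The part of this difference in background in the unequal sizes of the 2 sets was not tested.

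Most member genes had a Bmal1 CKO 2 peak somewhere nearby. Within the gene or 10 kb around it, 2425 members (76.4%) had a Bmal1 CKO 2 summit, against 66.7% of genes with an end peak in neither long list. The value over all genes was 87.8%. That value includes the 58.9% of genes with a Bmal1 CKO 2 end summit, which the rule bars from the members, so it is not a like comparison. The 66.7% is not a like comparison either, because the stretch counted grows with gene length. Median gene length was 14120 bp in members and 8569 bp in genes with an end peak in neither long list. A summit of any of the 4 short lists lay within the gene or 10 kb around it in 46 members (1.45%), against 2.36% of all genes. The median distance from a member peak to the nearest Bmal1 CKO 2 peak was 8633 bp, and 237 member peaks (6.26%) had one within 1 kb. The largest such distance was 418659 bp. Rora, a clock gene described below, is an example, with 45 Bmal1 CKO 2 summits in the gene and 10 kb around it and none within 1 kb of an end.

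Where the promoter table gave the strand, most members had a summit within 1 kb of the transcription start. Such a summit counted as a start summit even where the other end lay closer, as can occur in short genes. At Ins1, for example, the summit lay 484 bp from the start and 234 bp from the other end. Short genes of this kind were not counted apart, so they raise the shares at the start. Of the 2449 such members, 1732 had member summits at the start only, 466 at the other end only and 251 at both, so that 81.0% had one at the start. Among the 9675 genes of known strand with end peaks in both long lists, 95.7% had a Control 1 summit at the start. The 2311 member summits at starts lay at a median distance of 291 bp, with 38.3% within 200 bp and 27.8% upstream. In the genes of both lists the median distance was 235 bp, with 44.8% within 200 bp and 30.7% upstream. Member summits therefore lay somewhat farther from the start, and in both classes most lay downstream of it. A gene named below without its place may have its summit at either end.

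**Figure D2:**
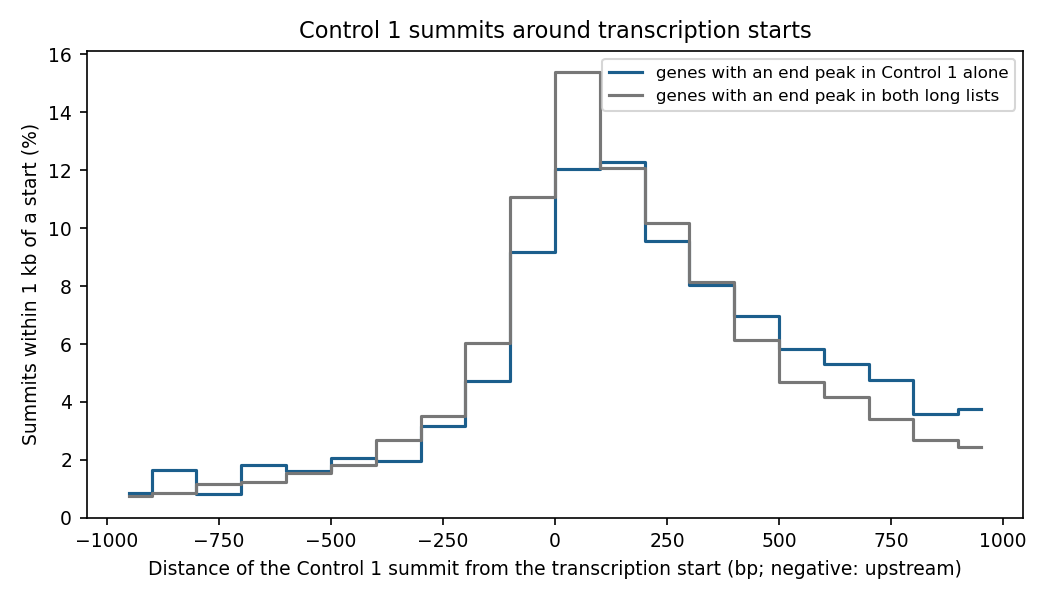
Distance of Control 1 summits from the annotated transcription start (x axis, bp, bins of 100, negative upstream) against the percentage of start summits (y axis). Members (blue, 2311 summits) peak just downstream of the start with a wider downstream shoulder than genes with an end peak in both long lists (grey, 11258 summits).

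Member promoters lay between those of the other classes in base composition. The median G+C content was 56.7% in members, 60.3% in genes with an end peak in both long lists, 48.3% in the mirror set, 46.3% in genes with an end peak in neither and 56.3% over all genes. A ratio of observed to expected CG dinucleotides above 0.6, the usual mark of a CpG island promoter, was found in 39.0% of members, 68.7% of genes in both lists, 20.8% of the mirror set, 13.7% of genes in neither and 48.4% of all genes. By promoter G+C, members made up 5.83% of the 1680 genes under 40%, 13.5% of the 3609 from 40% to 50%, 17.0% of the 5458 from 50% to 60%, 13.1% of the 4656 from 60% to 70% and 15.7% of the 2089 above. The mirror set had its larger shares at low G+C, with 6.67%, 7.01%, 3.76%, 1.40% and 1.20%. Among genes with a Control 1 end peak, members made up 33.4%, 28.4%, 22.3%, 14.7% and 17.6% in the same order. The low share of members under 40% G+C thus went with few Control 1 end peaks there (17.4% of genes). The part of composition in the choice of members was not tested.

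**Figure D3:**
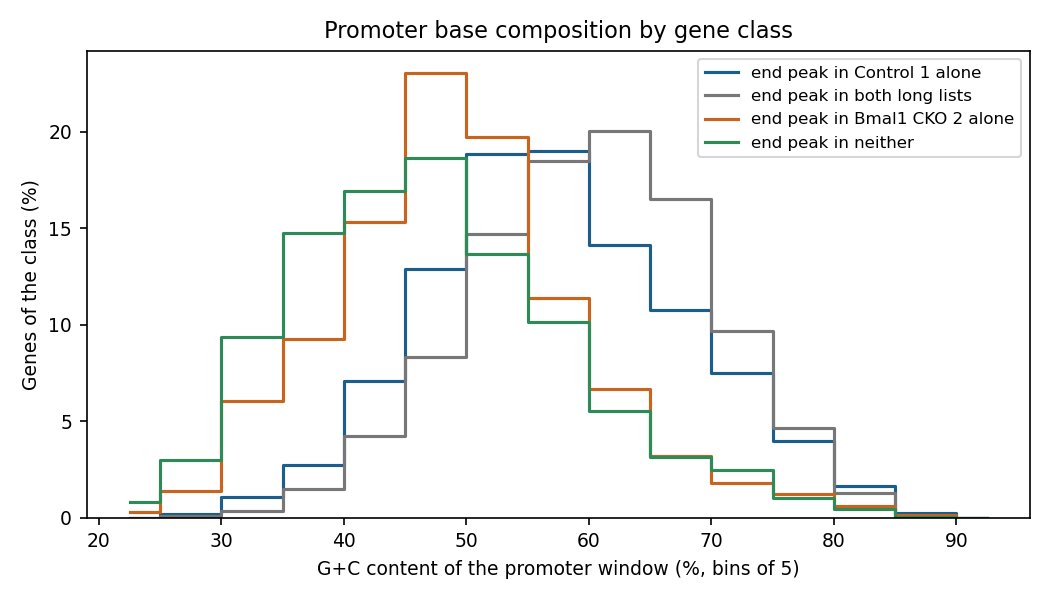
G+C content of the RefSeq promoter window (x axis, %, bins of 5) against the percentage of genes in each class (y axis). Members (blue, median 56.7%) lie between genes with an end peak in both long lists (grey, 60.3%) and those in Bmal1 CKO 2 alone (orange, 48.3%) or in neither list (green, 46.3%).

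The 955 members with a CG ratio above 0.6 had a median fold of 2.84, from 29 fragments over a background of 9.74. The 1494 members at or below it had 3.14, from 23 fragments over 6.62. The members of lower CG ratio thus had a slightly higher median fold, over a lower background.

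The 20 member genes of highest fold were led by Npffr2, the gene of a receptor for neuropeptide FF. Its fold was 7.47 from 35 fragments over 3.82, at a summit 192 bp inside the gene (chr5:89526840-89583914). Cyp2c39, a cytochrome P450 gene, and Sprr1a, which encodes a small proline-rich protein of the cornified envelope of skin, both had 28 fragments over 3.46 and a fold of 6.50. Ccdc7a, a coiled-coil gene, followed with 6.05. All 20 had 23 to 35 fragments, near or above the median of all member peaks, over backgrounds of 3.46 to 4.36, well below it. Of the 20, 4 were genes of skin and hair proteins beside Sprr1a, namely Krtap19-4 and Lce3b with 5.60, and Krtap4-8 and Lce1b with 5.38. Another 6 were numbered gene models, Gm11937 (5.98) first, and H3c2, a histone H3 gene, had 5.63. Lmbrd1 (5.49) and Eif4enif1 (5.40), a vitamin B12 transporter gene of the lysosome and the gene of a translation repressor, had their summits at the end away from the start. The summit at Sprr1a also lay at the end away from the start. Skin proteins, histones, olfactory receptors and numbered models can have near-identical copies, which was not measured here. How reads that fit several copies were handled is not given in the sources used here.

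Gene families were counted by symbol, in 56 families that together held 953 of the 3173 members, a share close to the 30.8% of all genes. In 34 families the share of members was above the 14.5% of all genes. Grouped by role, regulators and signals of development had the highest share and genes of protein synthesis, energy and turnover the lowest. The role groups were put together after values were seen, so their order and intervals are descriptions only. Each share is given with a 95% Wilson interval, which covers counting error only, and related genes are not independent of each other.

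Of 255 developmental factors and signals, 104 were members (40.8%, interval 34.9% to 46.9%). Of the 192 that had a Control 1 end peak at all, 54.2% were members, against 20.8% over all genes, and the mirror set held 12 (4.71%). Of 29 Wnt ligands and their frizzled receptors, 15 were members and none was in the mirror set. With a window of 2 kb in place of 1 kb, 10 of the 29 were members. The receptors Fzd2 and Fzd8 had folds of 3.25 and 3.09 from 34 and 30 fragments, and the ligands Wnt5b and Wnt8a had 3.07 and 2.96 from 29 and 27. The 4 values were alike in size, and none reached 4.

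Of 13 T-box factors, which regulate limb, heart and other organ formation, 7 were members, and these were all 7 with a Control 1 end peak. Tbx15 had a fold of 3.30, Tbx4 had 3.17, Tbx20 had 3.15 and Tbx5 had 2.62, from 20 to 34 fragments. Of 19 Sox factors 8 were members, led by Sox13 with 3.80, from 34 fragments at 123 bp inside the start. Of 39 Hox genes, which set position along the body axis, 16 were members, with Hoxb1 at 3.17 and Hoxb9 at 3.07. The other homeobox and paired factors gave 31 of 84, among them Pax8 (3.73), a factor of thyroid and kidney, and Dlx5 (3.40), a factor of bone and forebrain.

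Forkhead factors gave 17 of 44. Foxr1 had the only fold above 4 in the whole developmental group, 4.16, from 30 fragments at 33 bp inside the start, and Foxd1, a factor of kidney stroma and temporal retina, had 3.65. Fibroblast growth factors and their receptors gave 10 of 27, with Fgf16 at 3.78, Fgfr2 at 3.36 and Fgfr4 at 3.33. At Fgfr2 the summit lay at the end away from the start. The promoters of the group were rich in G+C, with a median of 62.0% over all its genes and 64.3% over its members. Its member peaks had a median of 28 fragments over a background of 9.61 and a median fold of 2.77, so that this group was many in number and low in fold.

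**Figure D4:**
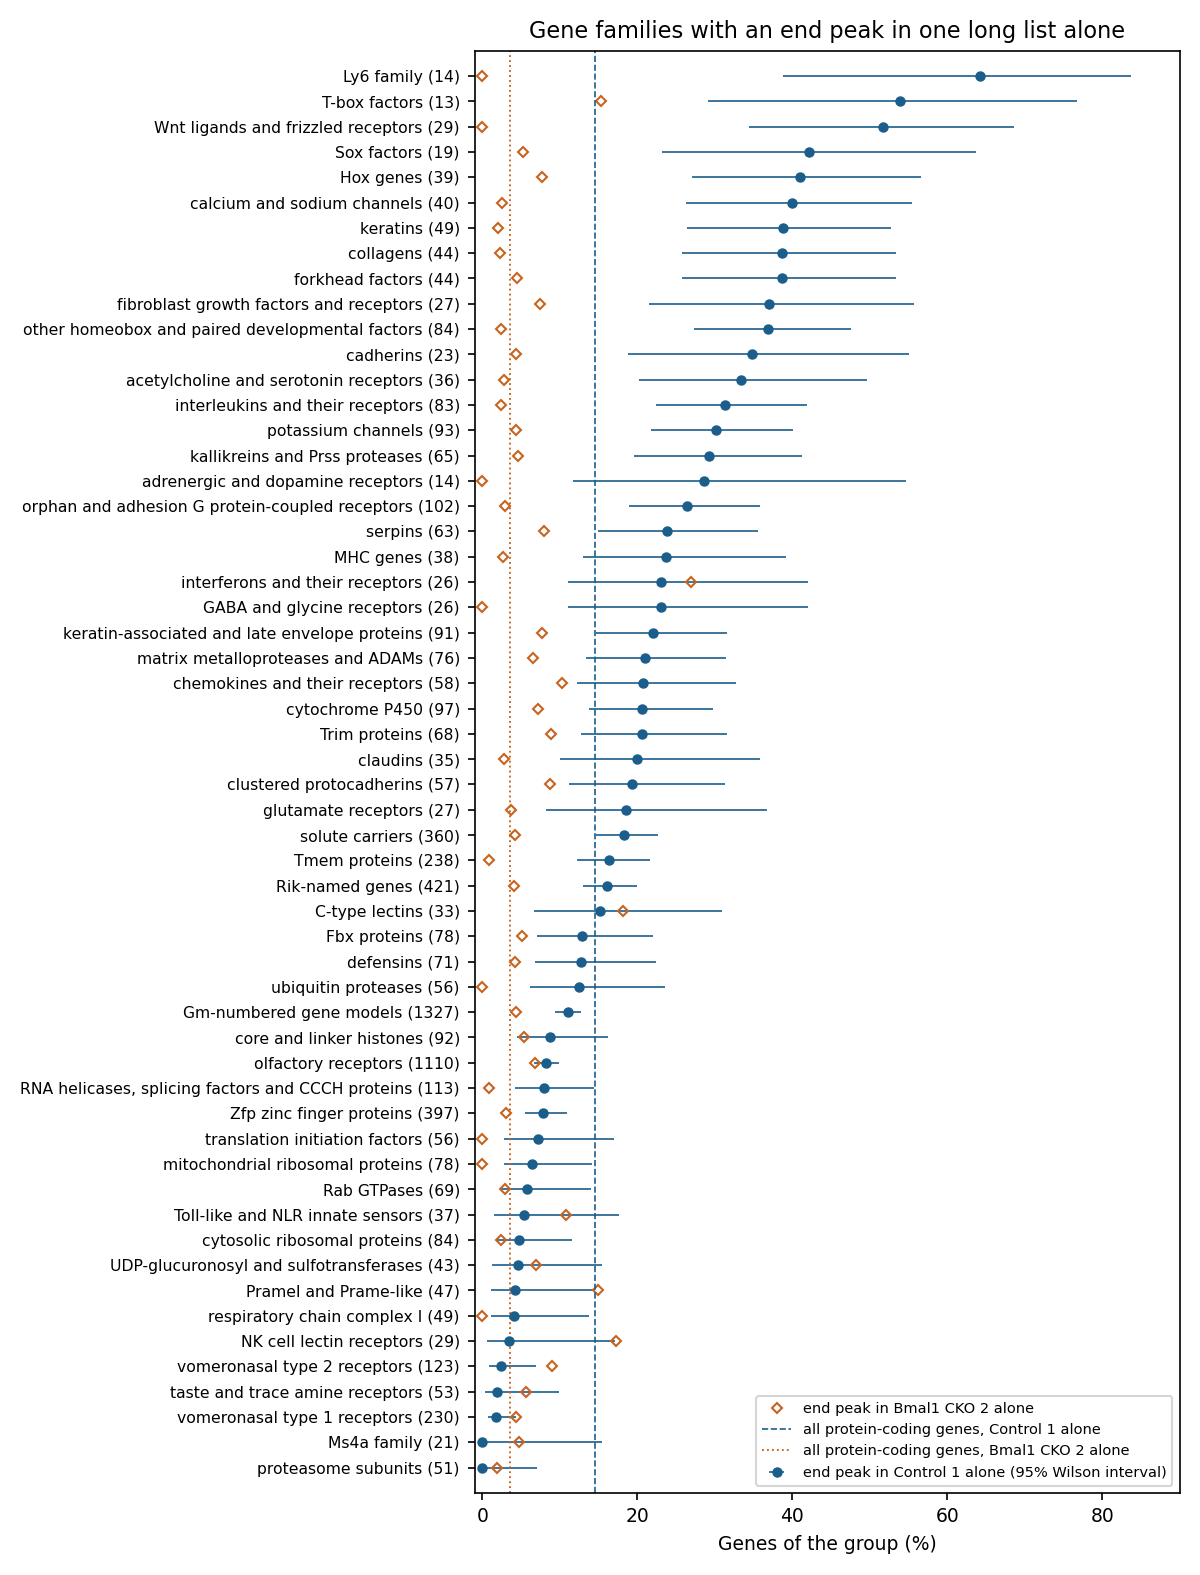
Percentage of genes in each of 56 symbol families (y axis, with the number of genes) that had a gene-end peak in Control 1 alone (blue, with 95% Wilson interval) or in Bmal1 CKO 2 alone (orange diamonds), beside the values of all genes (dashed 14.5%, dotted 3.63%). Developmental, channel and keratin families stand right of the dashed line, and ribosomal, proteasome and vomeronasal families left of it.

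Ion channels and transmitter receptors gave 71 members of 236 (30.1%, 24.6% to 36.2%), with 7 in the mirror set. Of 93 potassium channel genes, 28 were members, with Kcnu1, a channel of sperm, at 4.80 and Kcnj6, an inward rectifier of neurons, at 4.08. Of 40 calcium and sodium channel genes 16 were members, and the highest fold was 3.62 at Cacna1f, the calcium channel of photoreceptor synapses, at the end away from the start. Among receptors, Drd1, the dopamine D1 receptor, had a fold of 5.28 from 35 fragments at 59 bp upstream of its start, and its nearest Bmal1 CKO 2 peak was 22568 bp away. Chrnb3, a nicotinic acetylcholine receptor subunit, had 4.89, and Gabrg1, a GABA receptor subunit, had 4.48 from 19 fragments. Acetylcholine and serotonin receptors gave 12 of 36, and glutamate receptors 5 of 27.

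Genes of matrix, adhesion and proteases gave 82 of 306 (26.8%, 22.1% to 32.0%). Collagens gave 17 of 44, and Col1a2, a chain of type I collagen, had a fold of 5 from 22 fragments at 353 bp upstream of its start. Prss47, a serine protease gene, had 5.38 and Serpinb6d, a protease inhibitor gene, had 4.93, from 23 and 21 fragments over the lowest background. Of 23 cadherins 8 were members, with Cdh1, the cadherin of epithelia, at 2.94.

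Genes of skin structure gave 39 of 140 (27.9%, 21.1% to 35.8%). A fold of 4 was reached by 15 of the 39 (38.5%), against 346 of all 3173 members (10.9%). In 15 of the 39 (38.5%) the peak stood on the lowest background of the library, against 11.1% of all members. Keratins gave 19 of 49, with Krt26, a hair root keratin, at 4.40 from 24 fragments, at the end away from the start. Keratin-associated and late envelope proteins gave 20 of 91. The promoters of the group had a median G+C of 45.3%, below that of all genes.

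Immune signals and receptors gave 70 of 339 (20.6%, 16.7% to 25.3%), and the mirror set held 32 of them (9.44%), the highest mirror share among the 7 role groups. The group includes the Ly6 family, which gave 9 of 14 and was chosen after values were seen, so the share of the group is raised by it. Interleukins and their receptors gave 26 of 83. Il17a and Il2, both T cell cytokines, had a fold of 4.71 from 20 fragments, and Il6, an inflammatory cytokine, had 4.04 from 17. The background was 3.46 at all 3 genes, and at Il17a the summit lay at the end away from the start. Natural killer cell lectin receptors gave 1 of 29, Klrc3, and 5 of that family were in the mirror set.

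Chemosensory receptors had a low share of members with high folds. Of 1516 genes, 99 were members (6.53%, 5.39% to 7.89%) and 100 were in the mirror set (6.60%), so that the excess of Control 1 seen over all genes was absent. Only 248 had a Control 1 end peak, and 249 had one in Bmal1 CKO 2. Of those 248, 39.9% were members, against 20.8% over all genes, so that the low share went with few end peaks in either list. Olfactory receptors gave 91 of 1110, with 76 in the mirror set, and type 1 and type 2 vomeronasal receptors gave 4 of 230 and 3 of 123, with 10 and 11 in the mirror set. Olfr1360 and Olfr1408 had a fold of 5.38 from 23 fragments, at Olfr1408 at the end away from the start, and Olfr1512 had 4.55 from 21. In 81 of the 99 members (81.8%) the peak stood on the lowest background of the library, against 351 of all 3173 members (11.1%), and the median was 16 fragments. The promoters of the group had a median G+C of 35.8%.

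Genes of protein synthesis, energy and turnover gave 28 of 500 (5.60%, 3.90% to 7.97%), although 463 of them had a Control 1 end peak and 443 a Bmal1 CKO 2 end peak. The group as counted also held Rab GTPases (4 of 69) and RNA helicases, splicing factors and CCCH proteins (9 of 113). No proteasome subunit gene was a member (0 of 51), and cytosolic ribosomal proteins gave 4 of 84. Of these, Rps28 had a fold of 2.91 and Rps18 had 2.31, each at a peak shared with a neighbouring gene. The Rps18 summit lay at the end away from the start. The median promoter G+C of this group was 59.7%, close to the 62.0% of the developmental group, whose share of members was 40.8%. Most genes of the group had a Bmal1 CKO 2 end peak, which the rule leaves out, and the part of composition was not tested.

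Tissue classes were counted with lists of genes typical of a cell type or organ. In the 7 lists of retinal cell types, 32 of 110 genes were members (29.1%, 21.4% to 38.2%), and in 17 lists of other organs and blood cells 93 of 337 (27.6%, 23.1% to 32.6%). The shares were thus alike for the retinal lists and these 17, and both were above the 14.5% of all genes. All 7 retinal lists and 16 of the 17 others exceeded 14.5%, with the list of lung and airway (0 of 20) below it. The lists of neurons and of astrocytes and oligodendrocytes, with 10% each, were not among the 17 and also lay below it. Lists of 13 to 22 genes give wide intervals, and in 5 of the 7 retinal lists the interval included 14.5%. The lists of pigment epithelium (15.4%), epidermis and adipose tissue (3 of 20 each) lay at the value of all genes.

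Among retinal classes the share was highest for amacrine and horizontal cells, the interneurons that shape signals sideways, with 9 of 16 (56.2%, 33.2% to 76.9%). Slc6a9, a glycine transporter gene, had a fold of 3.02 from 40 fragments at 173 bp inside the start. Chat, the enzyme of acetylcholine synthesis, had 2.95, Calb2, the calcium binder calretinin, had 2.80 and Th, the enzyme of dopamine synthesis, had 2.63. The other 5 lay below these, and Bmal1 CKO 2 had an end peak at 3 genes of the list. With a window of 2 kb, 6 of the 16 were members. Slc6a9 had a Bmal1 CKO 2 peak 626 bp from its member peak, whereas at Chat the nearest was 9804 bp away. The member summit at Chat lay at the end away from the start.

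Bipolar cells, which carry photoreceptor signals inward, gave 6 of 15. Prdm8, a transcriptional regulator, had a fold of 4.01 from 37 fragments, Grm6, the glutamate receptor of ON bipolar cells, had 3.84 from 33 and Cabp5, a calcium-binding protein, had 3.59 from 15 over the lowest background. Ganglion cells and Muller glia each gave 4 of 15. Tbr1 and Pou4f2, ganglion cell transcription factors, had 3.75 and 2.83, and Slc1a3, the glial glutamate transporter, had 2.88. Rods gave 4 of 20, with Cnga1, a channel subunit of the light response, at 3.35 and Gnat1, rod transducin, at 2.40. The Cnga1 summit lay at the end away from the start. Cones gave 3 of 16 and pigment epithelium 2 of 13.

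**Figure D5:**
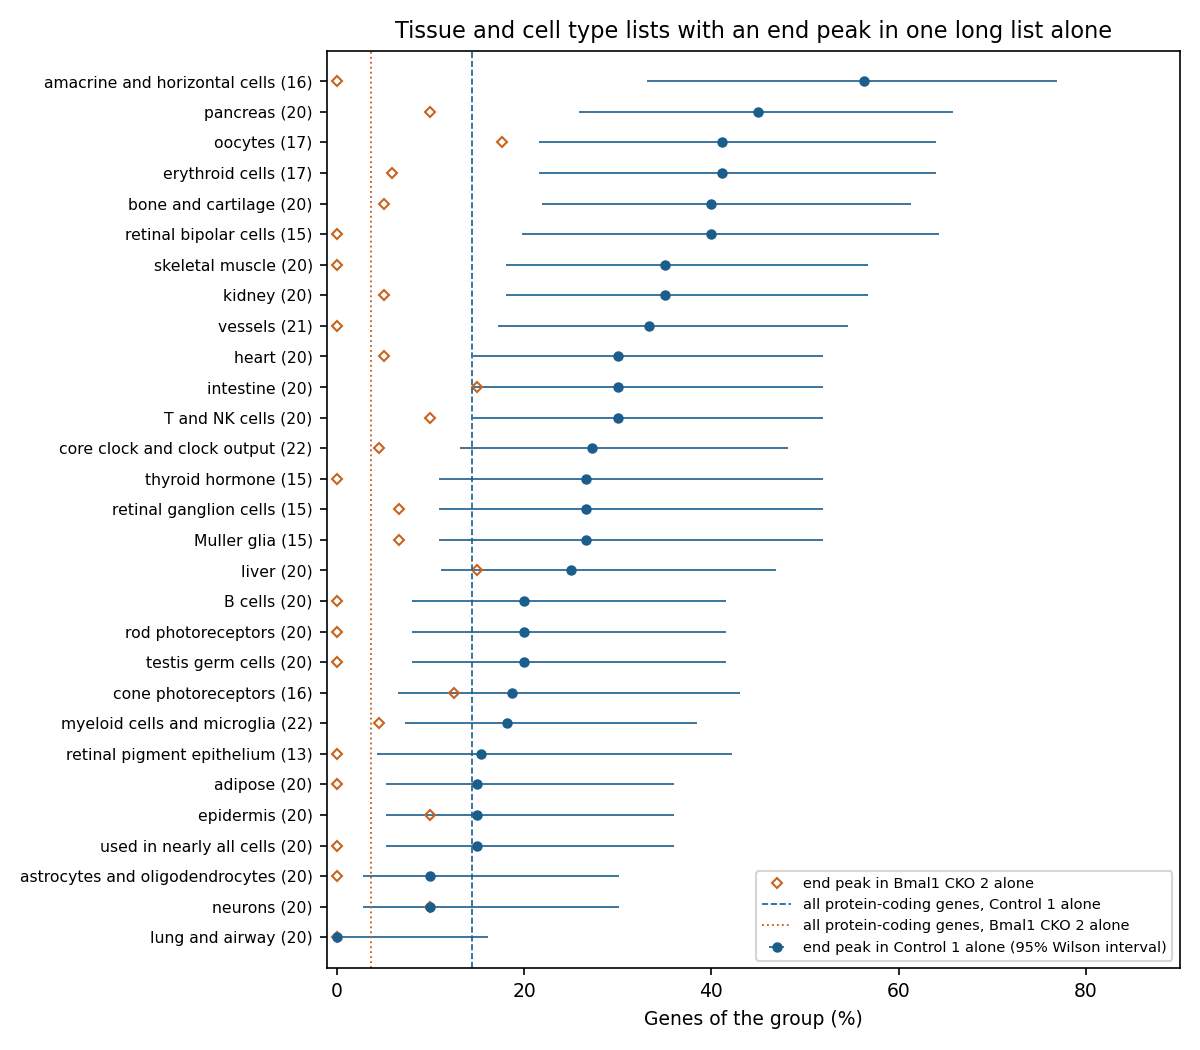
Percentage of genes in each of 29 cell type, tissue and pathway lists (y axis, with the number of genes) that had a gene-end peak in Control 1 alone (blue, with 95% Wilson interval) or in Bmal1 CKO 2 alone (orange diamonds), beside all genes (dashed 14.5%, dotted 3.63%). Retinal lists are spread among those of other organs, from 56.2% for amacrine and horizontal cells to 15.4% for pigment epithelium.

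Among other organs the pancreas list had the highest share, 9 of 20 (45.0%, 25.8% to 65.8%). Ins1, an insulin gene, had a fold of 5.16 from 22 fragments, and Sst, the somatostatin gene, had 5.15 from 23. Prss1, a trypsinogen, had 4.26 and Gcg, the glucagon gene, had 4.04. Oocyte and erythroid genes each gave 7 of 17, with Kpna7, an importin of the egg, at 4.37 from 37 fragments and Hemgn, a nuclear protein of erythroid cells, at 4.02. Bone and cartilage gave 8 of 20, with Runx2, a regulator of bone formation, at 3.77. The vessel list gave 7 of 21, with Emcn, an endothelial surface protein, at 4.48, and the liver list 5 of 20, with Fgg, a fibrinogen chain, at 4.78. Ucp1, the uncoupling protein of brown fat, had 4.62 at the end away from its start. The summits at Prss1, Gcg, Kpna7 and Runx2 also lay at the end away from the start.

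Genes used in nearly all cells gave 3 of 20, and genes of neurons in general gave 2 of 20, with Grin1, an NMDA receptor subunit, at 3.01 and Slc17a7, a vesicular glutamate transporter, at 2.28. At Slc17a7 the summit lay at the end away from the start. The lists of neurons and of astrocytes and oligodendrocytes lay below the value of all genes.

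The clock list gave 6 of 22 (27.3%, 13.2% to 48.2%). Nr1d1, the gene of the repressor REV-ERB alpha, had 31 fragments over 11.6 at 19 bp inside the start, and its nearest Bmal1 CKO 2 peak lay 811 bp away. Per1, a repressor of CLOCK and BMAL1, had 27 over 12.6 and a −log10 q-value of 2.17, and its fold of 2.06 ranked 3154 among the 3173 member genes. Rora, a nuclear receptor that activates Bmal1, had 24 over 6.90. Nfil3 and Bhlhe40, a pair of repressors, had 25 fragments each, over 7.48 and 8.66. At Nfil3 the summit lay at the end away from the start. Of the 4 with a promoter window, Per1 alone held CACGTG, in a window at an inner start (chr11:69098699-69098998) away from the summit at 69094910.

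The thyroid hormone list gave 4 of 15. Dio1 and Dio3 encode deiodinases that activate and inactivate the hormone, Crym encodes a binding protein of it, and Rxra encodes a partner of its receptors. Dio1 had 31 fragments over 8.30 at 63 bp inside the start, Crym had 25 over 7.08, Dio3 had 27 over 11.4 and Rxra had 33 over 14.2. Of the 3 cone members, Pde6c, the cone phosphodiesterase, had 30 fragments over 6.28 at 341 bp inside the gene. Gnat2, cone transducin, had 21 over 5.40 at the end away from the start, with a Bmal1 CKO 2 peak 649 bp away, and Cnga3, a cone channel subunit, had 22 over 7.80. None of the windows of Dio1, Dio3, Rxra, Gnat2 and Cnga3 held CACGTG.

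Members also lay side by side. Consecutive protein-coding genes that were all members formed 546 runs of 2 or more genes, 421 of them pairs. In 139 of these runs genes shared a member peak, which makes a run by itself, and no count for other genes stands beside these numbers. The longest held 9 Ly6 genes, which encode surface proteins of blood and other cells, on chromosome 15 (chr15:74878336-75222661), with 11 member peaks and folds from 2.49 at Ly6m to 4.11 at Ly6c2. Of the 14 genes of that family 9 were members, and 20 Bmal1 CKO 2 summits lay in the run and 10 kb around it. The next runs were both on chromosome 10 among hair keratin-associated genes. In the first, 7 genes with Krtap10-4 and Krtap10-10 (chr10:77798387-77853788) had 8 member peaks with folds of 2.54 to 3.39, and no Bmal1 CKO 2 summit lay there or within 10 kb. In the second, 6 genes with Krtap12-1 (chr10:77696273-77726848) had folds of 2.64 to 3.66, with 1 Bmal1 CKO 2 summit. These genes lie in tandem families whose copies can be alike in sequence, which was not measured here, so single members of the runs are uncertain.

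By chromosome, the share of members ran from 11.2% of the genes of chromosome 16 to 20.4% of those of chromosome 15, with 18.7% on chromosome 11 and 14.0% on the X chromosome. No gene of the Y chromosome or the mitochondrial genome was a member.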

How the data were processed

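ChIP-seq peak lists of 6 retinal libraries were used, 3 wild type and 3 Bmal1 CKO, matched to their samples through the series record, since list names carry other numbers than the sample titles. The tools listed are Trim Galore, Bowtie2 and MACS2, and the build is mm10, per the submitters' processing notes. For versions, parameters, an input and reads that map to several places, nothing is given in the sources used here. Peaks were called per library. The deposited values per peak are a fold enrichment (a ratio), −log10 p and q-values, a whole-number score and a summit position. The lists carry no read totals. Stacked fragments and local background were recovered from fold and p-value, taking the fold with a pseudocount of 1 and the p-value as Poisson; the deposited −log10 p-values of all member peaks were returned within 0.001.

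Gene ends came from a RefSeq table of assembly GRCm38.p6, with 21900 protein-coding genes. Strand and promoters came from a RefSeq promoter table, which matched 17492 of them, none on chromosome 18. Each gene took the entry closest to its annotated start; for 321 of 2449 members that entry lay over 1 kb away. Overlap meant 1 bp. Selection and recovery were tested on simulated peaks. Python 3.11.15, pandas 2.3.3, numpy 2.4.6 and scipy 1.17.1 were used.

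Members and lists were chosen with earlier results of these data known. Corrections to family patterns, the Ly6 family, the role groups, the sets followed under other settings and the 2 contrast promoters were chosen after values were seen. No test was run. Of the 29 gene lists, 2 listed genes were not found. Genes named are the 20 of highest fold, up to 4 of highest fold per family or list, all clock, thyroid hormone and cone members (the values of 1 are not reported here), the genes nearest the 1 kb limit, the 3 longest runs and members with CACGTG at a summit in the promoter window, of which the first 4 and Piwil1 are printed. Alternatives were the overlap, the window, the q-value, start only and each other library left out, and, added after seeing the data, a fold of at least 4 and no tandem copy families.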

Additional observations from a re-analysis of the deposited data

How the results depend on the processing

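The deciding library was Bmal1 CKO 2. Leaving out each other library in turn gave 3784 to 18721 member peaks and 3173 to 15181 member genes. The upper value came without Bmal1 CKO 2, and the range was 3784 to 3785 peaks and 3173 to 3174 genes without any other library. Over the same settings the share of members ran from 51.7% to 89.7% for Wnt and frizzled genes, 36.9% to 67.9% for homeobox genes, 30.1% to 67.7% for potassium channels, 8.20% to 19.3% for olfactory receptors, 4.76% to 89.3% for cytosolic ribosomal proteins and 56.2% to 75% for the amacrine and horizontal list. Without Bmal1 CKO 2, members are nearly all Control 1 end genes, 69.3% of genes. With a −log10 q-value of at least 5, 1199 peaks at 1186 genes remained in the count. Counting transcription starts only gave 2480 peaks, with strand known for fewer genes. With a fold of at least 4, added after seeing the data, the count was 349 peaks at 346 genes. With a 2 kb window the olfactory share was 10.1%, the Wnt and frizzled share fell from 51.7% to 34.5% (10 of 29 genes) and the amacrine and horizontal share from 56.2% to 37.5% (6 of 16). The cause was not tested. With a 500 bp window these last 2 shares were 41.4% and 43.8%. Of the values followed, 64 stayed within the 95% interval of a share or within 1.5 times a count and 13 did not, and for short gene lists that interval is wide. Many of those that stayed came from leaving out a library with few peaks, which could hardly change the set. The tally is therefore no measure of stability. No paired analysis was possible because the results come from no test. The lists carry no read totals, so depth is known only through the recovered background, and folds of different libraries were not compared.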

Other observations

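Among named families outside the 7 role groups, solute carriers gave 66 members of 360 (18.3%), with Slc46a2 at a fold of 4.52 and Slc16a9, a transporter of the monocarboxylate family, at 4.21. Cytochrome P450 genes gave 20 of 97 (20.6%) and Trim proteins, many of them ubiquitin ligases, 14 of 68 (20.6%). Zfp zinc finger genes, which encode DNA-binding proteins, gave 31 of 397 (7.81%), although 338 of them had a Control 1 end peak and 321 a Bmal1 CKO 2 end peak. They thus lay near the group of protein synthesis, energy and turnover, and apart from the developmental regulators, in their share of members. Core and linker histones gave 8 of 92 (8.70%), with H2ac24 at 5.11 and H2bc9 at 4.44. Copies of these genes can be near-identical, which was not measured here.

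In 11 families more genes were in the mirror set than among the members, although the members were 3.99 times as many over all genes. They included vomeronasal type 2 receptors (11 against 3), natural killer cell lectin receptors (5 against 1), Pramel genes (7 against 2) and innate sensors (4 against 2). The median promoter G+C of these 4 families was 38.0%, 39.7%, 43.5% and 46.7%, against 56.3% over all genes. The rest of the 11 also lay below that value, except proteasome subunits (1 against 0) with 57.3%. In some of the 11 the counts were close, as in interferons and their receptors (7 against 6) and C-type lectins (6 against 5). The part of composition in the counts was not tested.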
